A study of Homo sapiens with 43 samples.

Results

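At a gel range of 125 to 200 kDa, the RNA sites recovered with a FLAG antibody and with a V5 antibody were set side by side. The members were all rows of the peak lists of the libraries labelled FLAG-only and V5-only for that range, 50306 rows with FLAG and 57078 with V5. Together they made 107384 of the 1430241 rows in the 25 peak lists of the series. Because the members were chosen by these peak values, the direct comparison of the 2 lists is a description without a test. Tests were made only in libraries from the 6 other gel ranges.

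The series profiled protein-bound RNA by eCLIP (enhanced crosslinking and immunoprecipitation) in HEK293T, a human embryonic kidney cell line, wild type or with tags at the endogenous genes of RNA-binding proteins. Cells were crosslinked with ultraviolet light, RNA was trimmed with RNase I, complexes were immunoprecipitated and run on a protein gel, and RNA was sequenced from a slice of the membrane. The 43 samples were 25 immunoprecipitations and 18 inputs, and 14 of the immunoprecipitations were FLAG-only or V5-only libraries from 7 slices of 75 kDa each. The FLAG antibody came from Sigma and the V5 antibody from Bethyl. The labels name no RNA-binding protein for these 14 libraries and do not say whether the cells carried a tag. Each antibody and range had 1 library, and neighbouring slices overlapped on the gel. The 7 inputs of the slices were labelled by range and not by antibody, so the FLAG-only and V5-only folds of a range appear to rest on the same input. The lists hold no expression levels, so the cell line could not be checked against marker genes.

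In eCLIP, ultraviolet light joins a protein to the RNA it touches, and an antibody then pulls down the protein with the RNA fragment attached. A size-matched input, taken from the same gel slice without immunoprecipitation, measures the RNA that the slice contains anyway, and a site is reported as the immunoprecipitation over that input. FLAG and V5 are short peptide tags, and an antibody against a tag that brings down RNA without a tagged protein gives the background against which tagged proteins are read. RNA from other crosslinked proteins in the slice, sticking to the beads or recognised by the antibody, is the usual material of such background.

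Each row gave a position and strand in build hg19, a −log10 p and a log2 fold over input, both values being the authors' own. A row of either list is called a called peak here, and a peak is called significant where its −log10 p reached 3 and its log2 fold reached 3 (8 times the input). Peaks overlapping by at least 1 nt on the same strand were counted as shared. A significant peak without a significant partner in the other antibody's list is called FLAG-side or V5-side. Gene models and genome sequence of build hg19 were not used here, so sites are given by position and no gene is named. All intervals are 95% Wilson intervals, which cover counting error over peaks and treat neighbouring peaks as independent. The number of reads behind a peak is unknown, since the lists hold no counts.

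With V5, the library of this slice was unlike those of the other slices. Significant peaks numbered 6562, which was 11.5% of its called peaks, where the V5-only libraries of other ranges had 383 to 1915. The FLAG-only library of the range had 11119, 22.1% of its called peaks, and the other FLAG-only libraries had 865 to 6374. Each antibody thus had its longest significant list in this slice, as the plot of peak numbers by gel range shows. Both libraries of the slice appear to rest on the same input, so the lengths of their lists are not independent. The part of the input was not tested. The range of 125 to 200 kDa also had the highest commonest log2 fold among the FLAG-only libraries, 3.16. In V5-only it was 2.37, below the 2.54 of the 75 to 150 kDa range, which had 1448 significant peaks. A commonest fold is shared by many weak peaks and moves with the depths of a library and its input, and its part in the numbers of peaks was not tested.

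**Figure D1:**
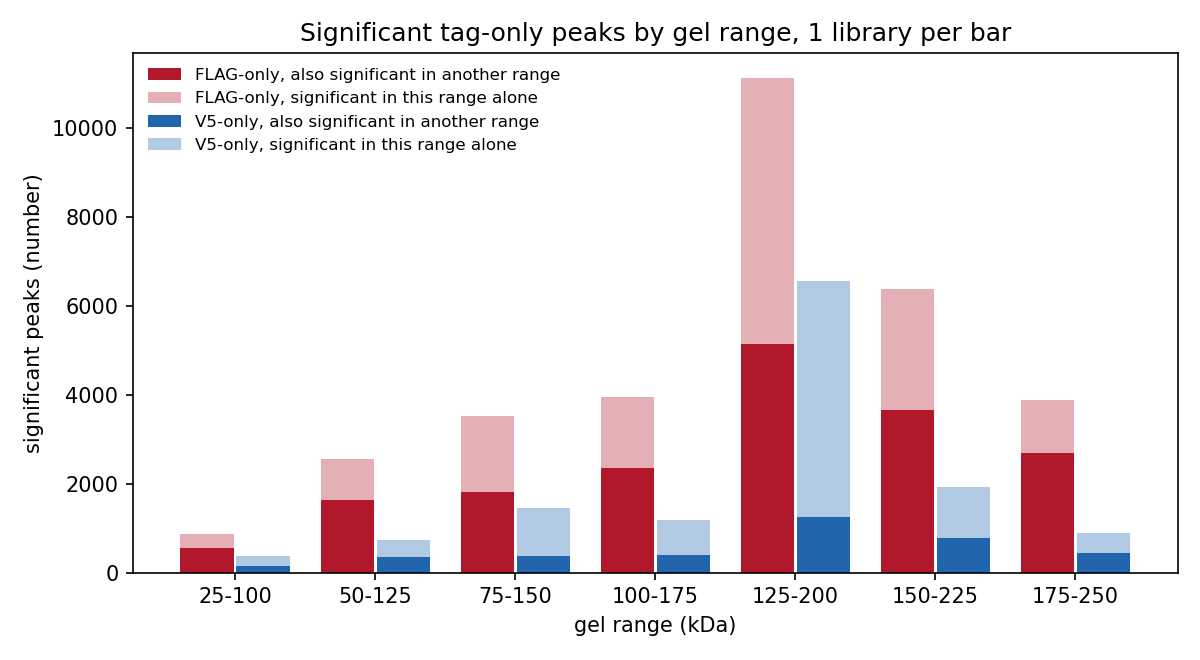
Number of significant peaks (vertical axis) in each FLAG-only (red) and V5-only (blue) library by gel range in kDa, 1 library per bar; the dark part of a bar is also significant in another range of the same antibody and the pale part is not. The bars at 125 to 200 kDa reach 11119 and 6562, and their pale parts hold 53.9% and 81.1% of them.

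Of the 11119 significant FLAG-only peaks, 3610 were shared with V5-only, 32.5% (31.6 to 33.3). Of the 6562 significant V5-only peaks, 3532 were shared with FLAG-only, 53.8% (52.6 to 55.0). This left 7509 FLAG-side and 3030 V5-side peaks. Peaks that were not significant overlapped a significant peak of the other antibody much less often, in 2.59% of such FLAG-only peaks and 7.16% of such V5-only peaks. Over all called rows, 40.1% of FLAG-only and 35.9% of V5-only rows overlapped a row of the other list. On the opposite strand, none of the significant peaks of either antibody overlapped a significant peak of the other.

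FLAG-only had 1.69 times as many significant peaks as V5-only. With thresholds changed alike in both lists FLAG-only stayed the longer, at 1.73 times with −log10 p of at least 5, 1.66 times in merged regions and 1.23 times with a log2 fold of at least 2 (15946 against 12988 peaks). The commonest fold was 0.79 higher in FLAG-only on the log2 scale. With the threshold of FLAG-only alone raised by this difference, which can only shorten that list, a setting chosen after the data were seen, FLAG-only had 4922 peaks and the ratio turned to 0.750. The shares then turned as well, to 40.6% of FLAG-only and 31.7% of V5-only peaks. The significant peaks just inside the threshold had a log2 fold of 3.0003 in FLAG-only and 3.0012 in V5-only, and the nearest peaks outside had 2.9977 and 2.9991.

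Shared sites carried the stronger evidence, and single-antibody sites the weaker. The median −log10 p was 9.63 at shared FLAG-only peaks and 5.36 at FLAG-side peaks, and 7.997 at shared V5-only peaks against 4.37 at V5-side peaks. A −log10 p under 5 was found in 48.3% of FLAG-side and 61.5% of V5-side peaks, but in 19.4% and 21.7% of the shared peaks of the 2 lists. Median log2 folds lay closer together, at 3.89 for shared FLAG-only, 3.57 for FLAG-side, 3.49 for shared V5-only and 3.52 for V5-side peaks. Shared peaks were also wider, with median widths of 51 and 48 nt against 45 nt for FLAG-side and 40 nt for V5-side peaks. The strands were used about equally, with 49.1% to 51.8% of each class on the plus strand.

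The share found with both antibodies rose with each class of −log10 p, in each list. Among FLAG-only peaks it was 16.2% at −log10 p of 3 to 5, 33.0% at 5 to 10, 46.9% at 10 to 20 and 63.99% from 20 upwards. Among V5-only peaks it was 29.2%, 60.1%, 81.9% and 91.1% in the same classes. Several of the strongest peaks by fold, the highest FLAG-only one included, carried the same −log10 p of 15.7. A value of 400 was held by 75 shared FLAG-only, 38 FLAG-side, 55 shared V5-only and 13 V5-side peaks. The origin of these repeated values is not given, so the highest classes are not a clean order of evidence. No steady rise was seen along the fold. The FLAG-only share was 28.6% at a log2 fold of 3 to 4, 39.7% at 4 to 5, 41.0% at 5 to 6 and 36.1% above that. The V5-only share was 54.8%, 48.8%, 67.5% and 81.8%, the last of these over 11 peaks.

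**Figure D2:**
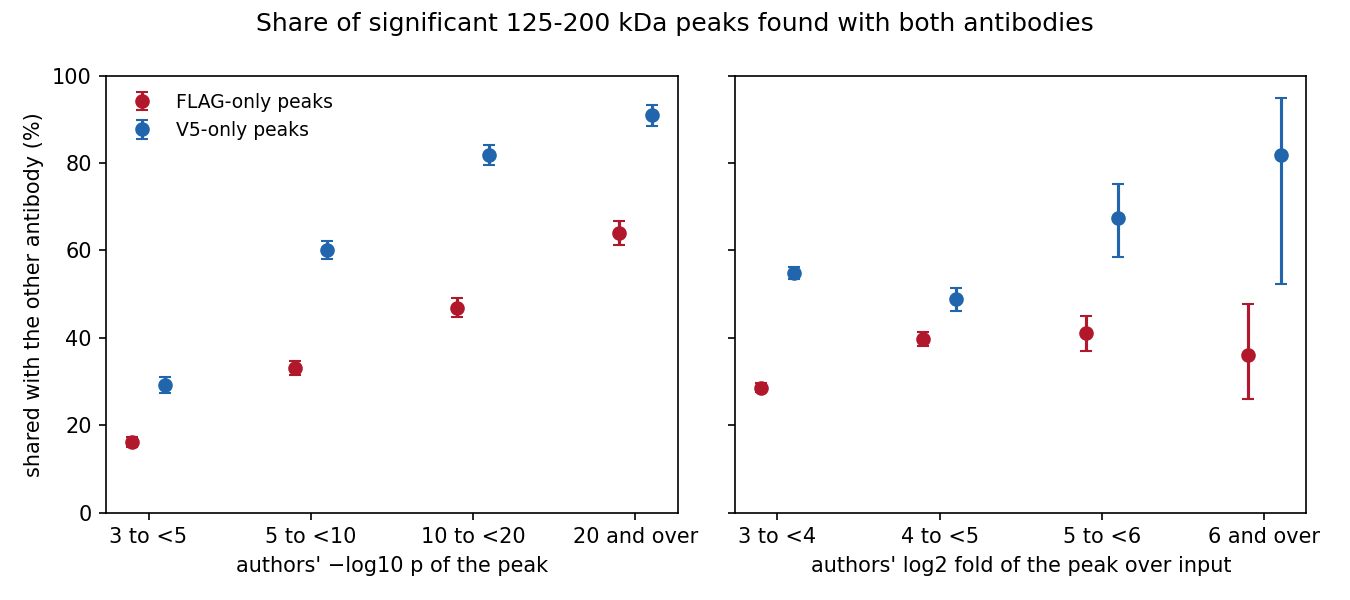
Percent of significant 125 to 200 kDa peaks shared with the other antibody (vertical axis) by class of the authors' −log10 p (left) and log2 fold over input (right), for FLAG-only (red) and V5-only (blue) peaks, with 95% Wilson intervals. From the lowest to the highest −log10 p class the share goes from 16.2% to 63.99% in FLAG-only and from 29.2% to 91.1% in V5-only, whereas the fold classes show no steady order.

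Part of the single-antibody peaks overlapped a called peak of the other library that was not significant. The shares of all called rows given beside them are not a like measure. They also count rows with a significant partner, which single-antibody peaks lack by definition. Of the 7509 FLAG-side peaks, 3074 (40.9%) overlapped a called V5-only peak that was not significant, close to the 40.1% of all called FLAG-only rows, and 4435 (59.1%) overlapped none. Those 3074 had a median log2 fold of 3.41 in FLAG-only and 2.66 in V5-only. In 1795 of them the V5-only peak met the −log10 p limit but not the fold limit. Of the 3030 V5-side peaks, 847 (28.0%) overlapped a called FLAG-only peak, below the 35.9% of all called V5-only rows, and 2183 (72.0%) overlapped none. The 847 had a median log2 fold of 3.37 in V5-only and 2.89 in FLAG-only. A fold limit missed with the −log10 p met was thus the most frequent case on the FLAG side, while the 3 ways of missing were about equally frequent on the V5 side, at 273 for the fold, 294 for the −log10 p and 280 for both.

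At 4019 overlapping pairs that were significant with both antibodies, the median log2 fold over input was 3.89 in FLAG-only and 3.49 in V5-only. The median difference was 0.33 (quartiles 0.01 and 0.65), and FLAG-only was the higher in 3040 pairs, 75.6%. Over all 22489 pairs called in both lists the values were similar, with a median difference of 0.37 and FLAG-only the higher in 72.4%. The higher fold in FLAG-only was thus not particular to significant pairs. The median difference at the significant pairs was smaller than the 0.79 between the commonest folds of the lists. FLAG-only was higher by more than that 0.79 in 18.9% of the significant pairs.

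The strongest sites of each class, named by a rule on fold, differed in how the other 12 tag-only libraries saw them. Of the 5 shared sites, the highest was chr4:13544075-13544100 on the minus strand, with a log2 fold of 7.24 in FLAG-only and 8.002 in V5-only. In the other FLAG-only ranges, from the lowest to the highest slice, its log2 folds were 1.33, 4.70, 5.26, 7.33, 6.68 and 5.42. In the other V5-only ranges they were 3.64, 5.09, 5.30, 7.47, 6.73 and 4.86. The folds of the antibodies thus ran alike over the slices at this site, with the lowest values at 25 to 100 kDa and the highest between 100 and 225 kDa. Both folds of a slice appear to rest on the same input, so they are not independent.

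The second shared site, chr1:237766447-237766527 on the plus strand, had log2 folds of 6.70 with FLAG and 6.69 with V5. It was significant in all 12 other libraries, at 4.21 to 5.57 with FLAG and 4.30 to 6.39 with V5. The third, chr2:230045619-230045696 on the minus strand, had 6.13 and 6.56 and was also significant in all 12. All 3 of these sites were significant in an eCLIP library of DGCR8, the RNA-binding partner of Drosha in microRNA processing, and the second also in the wild-type library of FMR1, the fragile X protein.

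The remaining pair of shared sites stood far higher at 125 to 200 kDa than in any other slice. At chr1:186320576-186320602 on the minus strand the log2 fold was 7.06 with FLAG and 5.95 with V5, against at most 4.004 and 2.94 elsewhere. V5-only had no significant peak there in the 6 other ranges. At chr2:101622490-101622533 on the plus strand it was 6.48 and 5.91, against at most 4.20 and 3.88. No library of an RNA-binding protein had a significant peak at either.

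The 5 strongest FLAG-side sites without any called V5-only peak had a called FLAG-only peak in every slice. The highest, chr4:151172698-151172828 on the plus strand, had a log2 fold of 8.78, and 4.65, 5.38, 5.98, 5.99, 6.46 and 8.05 in the other FLAG-only ranges from the lowest slice to the highest. None of the 7 V5-only libraries had a called peak there. The next, chr1:3741307-3741424 on the minus strand, had 8.70, and 5.36 to 7.59 in the other FLAG-only ranges, while a V5-only peak was called there in a single range at 1.39.

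The other FLAG-side sites repeated this. They were chr10:99010775-99010915 on the minus strand (7.68), chr12:57111053-57111134 on the minus strand (7.62) and chr4:185598181-185598285 on the plus strand (7.62). Their log2 folds in the other FLAG-only ranges ran from 3.33 to 6.90, from 3.23 to 5.95 and from 3.99 to 6.77. None of the 3 had a called V5-only peak in any range. The chr10 site was significant in 5 of the 6 other FLAG-only ranges and the other named FLAG-side sites in 6 of 6. At all 5 no library of an RNA-binding protein had a significant peak, the FLAG libraries of FMR1 and DGCR8 included.

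The 5 strongest V5-side sites were less alike. The highest, chr3:160122391-160122402 on the plus strand, had a log2 fold of 7.59, and 6.39, 6.09, 5.63, 8.09, 7.51 and 6.75 in the other V5-only ranges from the lowest slice to the highest. FLAG-only had a called peak there in 4 of the other 6 ranges, at 2.74 to 4.68, and 2 of these were significant. The DGCR8 wild-type and FLAG libraries had a significant peak there too. It was thus a site of both antibodies outside this slice, with higher folds in V5-only in the 4 ranges where both had a peak.

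At chr17:18965408-18965450 on the plus strand the V5-only fold was 5.59 on the log2 scale, and no FLAG-only peak was called in the same slice. Yet 5 of the 6 other FLAG-only ranges had a significant peak there, at 5.23 to 7.16, as had 5 other V5-only ranges, at 3.97 to 6.28, and 6 libraries of RNA-binding proteins. FLAG-only lacked a called peak at that site in this slice and at 150 to 225 kDa, and V5-only at 100 to 175 kDa. At chr9:131381188-131381251 on the plus strand the value was 5.74, against 1.95 to 2.98 in the 6 other V5-only ranges and 2.14 to 3.66 in the FLAG-only ones. At chr20:2638949-2638987 on the plus strand (5.83) and chr3:50114442-50114457 on the plus strand (5.59), V5-only had 1 other significant range each, at 3.47 and 4.37. FLAG-only was also significant at the chr20 site in 1 other range, at 3.42, and at the chr3 site in none.

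**Figure D3:**
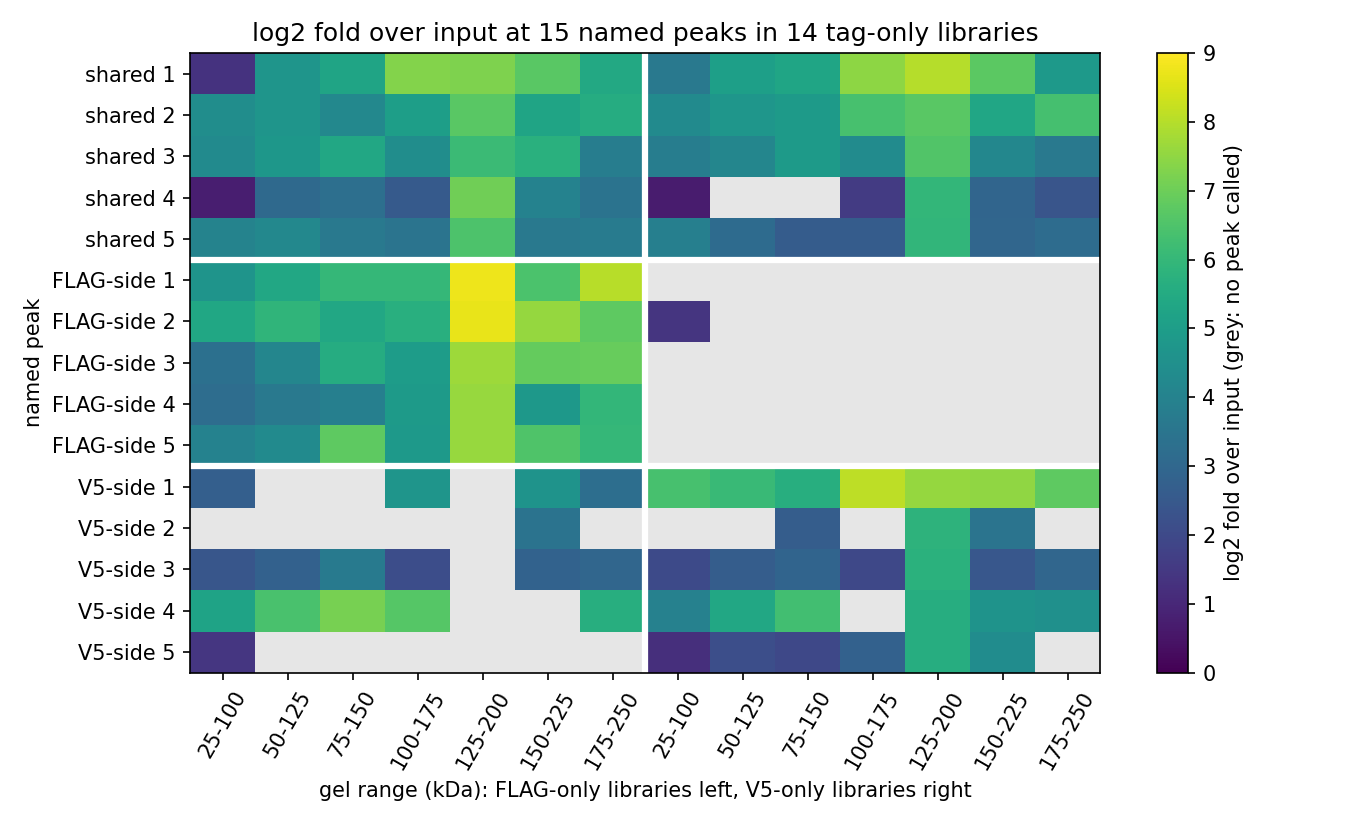
Log2 fold over input (colour, 0 to 9) at the 5 named shared, 5 FLAG-side and 5 V5-side sites (rows, in the order of the text's rule, highest first) in the 14 tag-only libraries (columns, gel range in kDa, FLAG-only left and V5-only right), with grey where no peak was called. FLAG-side rows are coloured in all FLAG-only columns and grey in the V5-only columns but for a value of 1.39, and V5-side rows hold colour on each side.

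The preference of single-antibody sites for their antibody was then tested in the 6 other gel ranges, whose libraries the choice of members did not use. In each of these libraries the share of FLAG-side peaks that overlapped a significant peak was divided by the share of V5-side peaks, on the log2 scale, after adding 0.5 to each count. The share of called peaks that were significant in these libraries, from the lowest slice to the highest, was 1.21%, 3.75%, 6.7%, 6.43%, 11.5% and 6.86% in FLAG-only and 0.555%, 1.1%, 2.69%, 1.92%, 3.1% and 1.86% in V5-only. In FLAG-only libraries, from the lowest slice to the highest, the value was 0.82, 0.87, 0.93, 0.93, 0.81 and 1.00. In V5-only libraries it was −1.49, −0.21, −1.18, −0.86, −0.69 and −0.79. The 2 sets did not overlap, FLAG-side sites being the more frequent in every FLAG-only library and V5-side sites in every V5-only library.

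The mean difference between the FLAG-only and V5-only library of a range was 1.77 ± 0.44 on the log2 scale (SD, n = 6 ranges), positive in 6 of 6. The two-sided exact sign-flip permutation p was 0.03125, the smallest that 6 ranges can give, and 0.03125 after Benjamini-Hochberg adjustment over 3 tests. Neighbouring slices share part of the gel and nothing in the labels says that the ranges came from separate cultures, so this p measures the spread between these slices. Leaving out any range gave differences of 1.66 to 1.90, where the smallest possible p is 0.0625.

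Shared sites were found again in other slices more often than single-antibody sites. In the FLAG-only libraries, from the lowest slice to the highest, 5.60%, 16.2%, 14.3%, 19.1%, 36.2% and 21.9% of shared peaks were overlapped. For FLAG-side peaks it was 2.81%, 8.74%, 10.1%, 12.1%, 19.1% and 13.5%. The mean difference was 7.83 ± 5.00 percentage points (SD, n = 6 ranges, positive in 6 of 6, two-sided exact sign-flip permutation p = 0.03125, adjusted p = 0.03125). The 150 to 225 kDa range gave the highest shares of both classes, and without it the mean difference was 5.98 points. Here and in the V5-only test below, p again reflects only a common sign over slices that cannot be taken as independent.

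In the V5-only libraries the same order was seen with lower shares. There 1.95%, 5.46%, 3.85%, 4.56%, 12.03% and 7.39% of shared V5-only peaks were overlapped, against 1.39%, 2.15%, 3.20%, 3.17%, 5.64% and 2.97% of V5-side peaks. The mean difference was 2.79 ± 2.34 points (SD, n = 6 ranges, positive in 6 of 6, two-sided exact sign-flip permutation p = 0.03125, adjusted p = 0.03125). With −log10 p of at least 5 required throughout, it was 1.55 points and the call was lost (exact permutation, adjusted p = 0.188). Shared peaks had higher −log10 p values, which move with recovery. They were also wider, and recovery rests on an overlap of 1 nt, but the part of width was not tested. Among peaks with a −log10 p under 5 the differences were 4.63 points in FLAG-only and 1.09 points in V5-only, and among peaks with a log2 fold under 4 they were 6.13 and 2.37 points, each positive with an exact permutation adjusted p of 0.03125. These restricted comparisons were added after the data were seen.

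**Figure D4:**
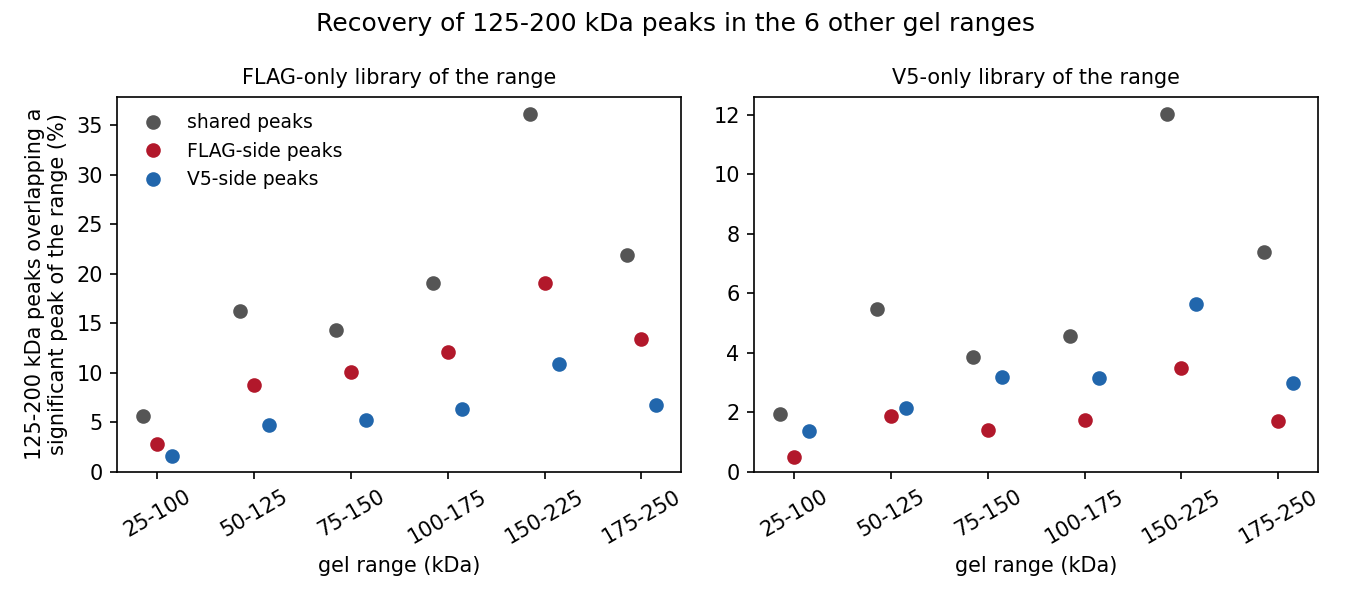
Percent of the shared (grey), FLAG-side (red) and V5-side (blue) 125 to 200 kDa peaks that overlap a significant peak in the FLAG-only (left) and V5-only (right) library of each other gel range in kDa, 1 library per point; the vertical scales differ. Shared peaks lie highest in all 12 libraries, up to 36.2% and 12.03%, FLAG-side lies above V5-side at left, and the order turns at right.

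Significant sites of this slice were in large part not significant in another slice of the same antibody. This held for 5993 FLAG-only peaks, 53.9%, where the other FLAG-only ranges had 30.9% to 48.3%, and for 5321 V5-only peaks, 81.1%, where the other V5-only ranges had 49.8% to 73.8%. Most of these were present elsewhere at lower values. A peak was called in at least 1 other range of the antibody at 90.4% of the FLAG-only and 91.4% of the V5-only ones, in a median of 4 of 6 ranges. The median of the best log2 fold there was 2.59 and 2.34. A peak was called in the slice of 100 to 175 or of 150 to 225 kDa, which together cover this range of the gel, at 71.3% and 76.8%. Only 5.18% of all significant FLAG-only and 6.98% of significant V5-only peaks had no called peak in another range. The share significant in 1 range alone moves with list length, and this slice had the longest list of each antibody. It was not computed in lists of equal length.

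The sites significant at 125 to 200 kDa alone were shared between the antibodies less often than the rest, 24.0% against 42.4% in FLAG-only and 50.3% against 69.1% in V5-only. This was not particular to the slice. The same order was seen in every other range of each antibody except FLAG-only at 25 to 100 kDa, with 15.2% against 12.6%. At 150 to 225 kDa it was 8.94% against 19.0% in FLAG-only and 35.2% against 65.4% in V5-only. Sites significant at 125 to 200 kDa alone also had weaker evidence, with a median −log10 p of 4.92 against 8.33 in FLAG-only and 5.41 against 8.31 in V5-only. Counted over all 12 other tag-only libraries, 37.5% of shared FLAG-only peaks, 58.1% of FLAG-side, 38.2% of shared V5-only and 67.8% of V5-side peaks were significant in none. At the other end, 3.55% of shared FLAG-only and 0.679% of FLAG-side peaks were significant in 6 or more.

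Along the genome, many sites of the antibodies lay close to one another even where they did not overlap. The same distances were not computed for all called rows. Of the FLAG-side peaks, 7.14% lay within 0.05 kb, 26.7% within 1 kb, 58.2% within 10 kb and 78.2% within 100 kb of a significant V5-only peak on the same strand. Of the V5-side peaks, 9.90%, 32.0%, 61.4% and 80.7% lay within these distances of a significant FLAG-only peak. On the opposite strand 0.120% and 0.0990% lay within 1 kb, 1.31% and 2.41% within 10 kb and 18.9% and 26.1% within 100 kb. Neighbours within 1 kb were thus nearly all on the same strand, which was less marked at 100 kb.

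Joining significant peaks of either antibody that lay within 10 kb on a strand gave 4891 loci. Peaks of both antibodies were present in 1898, FLAG-only peaks alone in 2070 and V5-only peaks alone in 923. Of the loci of a single antibody, 1534 with FLAG and 776 with V5 held 1 peak. Of the 1898 loci of both antibodies, 481 held no shared peak. Loci of both antibodies contained 61.0% of the FLAG-side and 62.6% of the V5-side peaks. Most single-antibody peaks therefore lay in a neighbourhood where the other antibody also had a significant peak. This largely restates the distances within 10 kb given above. Without the share of all called rows, it cannot be said whether this is particular to single-antibody peaks.

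The fullest loci of both antibodies were long clusters. They and the single-antibody loci below were picked after their values were seen. At chr1:186283832-186332124 on the minus strand, which includes the fourth named shared site, there were 64 FLAG-only and 38 V5-only peaks, of which 39 and 30 were shared. The other FLAG-only ranges had 9 to 40 significant peaks in it and the other V5-only ranges 0 to 6. At chr14:56078806-56142586 on the plus strand there were 48 and 28 peaks, at chr12:104325388-104341560 on the plus strand 46 and 28, and at chr1:171481315-171537458 on the plus strand 45 and 28. The V5-only ranges other than 125 to 200 kDa had at most 8, 4 and 3 peaks in these loci, and FLAG-only ranges up to 36, 27 and 23.

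The largest loci of FLAG-only peaks alone were short, dense and present in FLAG-only libraries across the gel. At chr19:2013311-2015693 on the minus strand FLAG-only had 17 significant peaks with a median log2 fold of 4.57. The other FLAG-only ranges had 1 to 18 significant peaks there and all V5-only ranges had 0. V5-only called 3 peaks there in this slice, at a log2 fold of at most 2.95. At chr16:89973752-89975178 on the plus strand it had 11 peaks with a median of 5.07, with 1 to 16 in the other FLAG-only ranges. At chr4:151171420-151173980 on the plus strand, around the strongest named FLAG-side site, it had 9 peaks with a median of 5.82, and 3 to 11 elsewhere. At chr9:136294002-136294871 on the plus strand it had 8 peaks, and 3 to 10 elsewhere. In these last 3 loci too, no V5-only library had a significant peak, and at 125 to 200 kDa V5-only had no called peak of any strength in them. The FLAG library of DGCR8 had a significant peak in the chr4 locus. The fifth locus, chr11:93400783-93416905 on the plus strand with 7 peaks, was less regular, with 0 to 5 peaks in the other FLAG-only ranges and 0 to 1 in the V5-only ones.

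Loci of V5-only peaks alone held fewer peaks. At chrX:70766601-70767757 on the plus strand it had 12 significant peaks with a median log2 fold of 4.58. The other V5-only ranges had 4 to 16 there, and all FLAG-only ranges had 0. FLAG-only called peaks in that locus in the same slice, at a log2 fold of at most 1.85. At chr16:2027736-2030873 on the plus strand V5-only had 6 peaks, with 0 to 4 in its other ranges, and at chr16:2139200-2140727 on the minus strand 5, with 0 to 3. The FLAG-only ranges had no significant peak in either. At chr11:62360782-62366030 on the minus strand V5-only had 5 peaks, and the other ranges of each antibody had 0 to 1. FLAG-only called peaks in these last 3 loci too, at log2 folds of at most 2.57, 3.57 and 4.16, the latter pair past the fold limit but not the −log10 p limit.

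The V5-only locus at chrX:73066573-73072471 on the minus strand had 10 significant peaks with a median log2 fold of 3.15. It was a site of weaker folds, where FLAG-only called 44 peaks and V5-only 59 in this slice, and where the highest FLAG-only log2 fold was 2.26. The wild-type library and the V5 libraries of both isoforms of HNRNPC, which packages nascent transcripts in the nucleus at runs of uridines, had significant peaks in it.

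The sites that were significant with both antibodies at 125 to 200 kDa and in none of the 12 other libraries were spread widely. At these sites too, the folds of both antibodies appear to rest on the same input. There were 1353 such FLAG-only peaks in 834 windows of 100 kb on a strand. Of these windows, 556 held 1, 31 held 5 or more and 1 held 10 or more. The 5 fullest windows together held 3.47% of the peaks.

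The fullest window was mitochondrial, on the plus strand, with 15 such peaks. On the whole of chrM, FLAG-only had 44 significant peaks and V5-only 27, all on the plus strand, between positions 739 and 6046. The other FLAG-only ranges had 0 to 11 and the other V5-only ranges 0 to 6. All 27 V5-only peaks and 24 of the FLAG-only peaks were shared. Called peaks on chrM numbered 239 in FLAG-only against 240 to 306 in the other FLAG-only ranges and 220 in V5-only against 222 to 270. All significant peaks, shared or not, made 18.4% of called chrM peaks in FLAG-only and 12.3% in V5-only, near or below the 22.1% and 11.5% over all chromosomes of this slice. For the shared peaks significant in no other library it was otherwise. Of these, 1.11% lay on chrM, which had 0.475% of called FLAG-only rows. Relative to called rows this was the most of any chromosome, though it rests on the 15 peaks on chrM. The highest log2 fold there was 4.78 in FLAG-only and 4.18 in V5-only.

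The other fullest windows lay on chromosomes 3, 12 and 17. In chr3:42600001-42700000 on the plus strand 9 such peaks were found, in chr12:112800001-112900000 on the minus strand 8, in chr17:37300001-37400000 on the plus strand 8 and in chr17:37000001-37100000 on the minus strand 7. In the last of these neither antibody had a significant peak in any other range, although 10 to 16 peaks were called there in FLAG-only and 12 to 20 in V5-only. The significant FLAG-only peaks of that window lay between positions 37006383 and 37009303, and the 7 had a median log2 fold of 3.71 in FLAG-only.

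Sharing differed between chromosomes. V5-only peaks were shared in 35.4% on chromosome 16 (29.7 to 41.5), 38.2% on chromosome 19 (32.8 to 43.9) and 38.8% on chromosome 22, and in 61.8% on chromosome 14 (56.3 to 67.1) and 59.1% on chromosome 1. Among FLAG-only peaks the lowest values were 20.6% on chromosome 18 (13.99 to 29.2), 23.1% on chromosome 16 (19.0 to 27.7), 26.5% on chromosome 13 and 27.0% on chromosome 19. Chromosomes 16 and 19 were thus among the lowest for each antibody. They also had low shares of significant peaks among called ones, 15.1% and 15.6% in FLAG-only and 8.22% and 7.68% in V5-only, against 22.1% and 11.5% overall. The intervals treat peaks as independent although they cluster in loci, and no test between chromosomes was made.

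**Figure D5:**
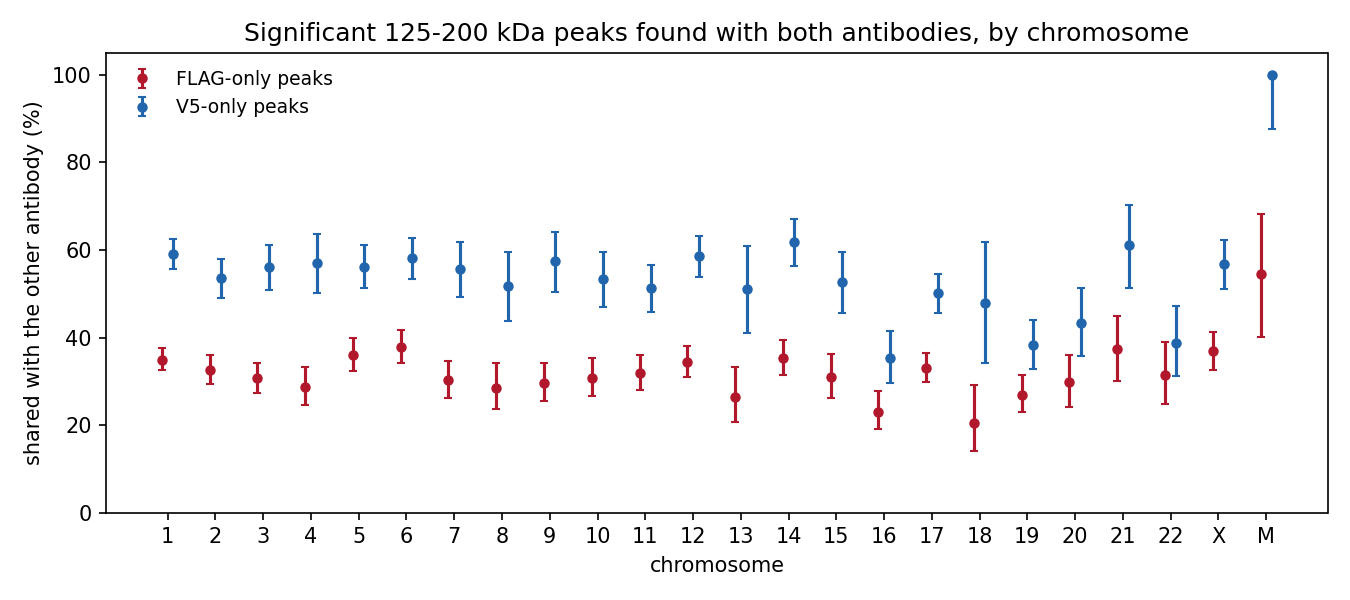
Percent of the significant FLAG-only (red) and V5-only (blue) 125 to 200 kDa peaks that are shared with the other antibody (vertical axis) on each chromosome, with 95% Wilson intervals over peaks. Chromosomes 16 and 19 are low for each antibody, at 23.1% and 27.0% in FLAG-only and 35.4% and 38.2% in V5-only, and chrM has 100% of 27 V5-only peaks.

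The sites of this slice were also set against the 11 libraries of RNA-binding proteins, each with its own list. The shares that these libraries overlap among all called rows of the slice were not computed. Of the called peaks of these libraries, 5.23% were significant in wild-type FMR1, 17.2% in FMR1 FLAG, 4.73% in wild-type LIN28, 10.6% in LIN28 V5, 7.03% in wild-type RBFOX2, 4% in RBFOX2 V5, 4.16% in wild-type DGCR8, 1.78% in DGCR8 FLAG, 2.15% in wild-type HNRNPC, and 0.76% and 1.97% in the V5 libraries of HNRNPC isoforms 1 and 2. The long FLAG list of FMR1, an mRNA-binding protein of the cytoplasm, overlapped 23.4% of shared FLAG-only, 18.0% of FLAG-side and 14.8% of V5-side peaks. The wild-type FMR1 library, made with an antibody against the protein, overlapped 6.59%, 4.58% and 4.32%. The V5 list of LIN28, which binds mRNAs and let-7 precursors, overlapped 6.37%, 4.55% and 3.47%. Wild-type LIN28 overlapped 1.83%, 1.05% and 1.16%. Shared sites had the highest share in all 4 of these libraries. FLAG-side sites were above V5-side sites in both FMR1 libraries and in LIN28 V5. In wild-type LIN28 the order turned, within overlapping intervals (0.845 to 1.31 for FLAG-side and 0.832 to 1.60 for V5-side). The intervals of these classes also overlapped in wild-type FMR1 and LIN28 V5.

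Among the significant peaks of the slice, HNRNPC overlapped V5-side sites almost alone. Its wild-type library, with no tag antibody, overlapped 59 V5-side peaks, 1.95% (1.51 to 2.50), but 2 FLAG-side peaks (0.0266%) and 1 shared peak. The V5 libraries of its isoforms overlapped 9 and 18 V5-side peaks and none of the FLAG-side or shared ones. For 0 of 7509 FLAG-side peaks the upper end of the interval was 0.0511%. Without the shares of all called rows, it cannot be said how far this is particular to the significant peaks. The 59 peaks lay on 18 chromosomes, and FLAG-only had a called peak at 9 of them. They had a median log2 fold of 3.48 in V5-only, where V5-side peaks elsewhere had 3.52. The other V5-only ranges had 0 to 9 significant peaks at these 59 places and the FLAG-only ranges 0 to 1, so that most were significant in the V5-only library of this slice without another slice. Libraries of RBFOX2, a splicing regulator, and of DGCR8 overlapped at most 0.538% of any class. V5-side sites had a higher share than FLAG-side sites in wild-type RBFOX2 (0.396% and 0.146%), RBFOX2 V5 (0.297% and 0.0932%) and wild-type DGCR8 (0.330% and 0.0799%), each on 12 or fewer peaks of a class.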

How the data were processed

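The authors deposited 1 peak list per immunoprecipitation library, not pooled, with the −log10 p and the log2 fold over input of each peak. Cutadapt, STAR, GATK, Picard, SAMtools and build hg19 are named per the submitters' processing notes; which software called the peaks was not given in the sources used here. Reads per library are unknown. Samples were grouped by antibody and gel range from the labels. The members and the comparisons were chosen with earlier results of these data known.

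Peaks with −log10 p and log2 fold of at least 3 were matched where 1 nt or more of both lay on the same strand, with Python 3.11.15 and NumPy 2.4.6. Sites were named by rule: the 5 shared pairs with the highest lower fold, the 5 peaks of highest fold of each antibody without a called peak of the other, each from a separate 10 kb neighbourhood, and the 5 windows of 100 kb with the most shared peaks significant in no other range. Over the 6 other gel ranges, differences were tested by two-sided exact sign-flip permutation, adjusted over 3 tests. The alternatives were other thresholds, overlaps, list lengths, units and strands. The overlap and test code was checked on simulated data. The planned counts over gene lists need gene models of build hg19, not used here.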

Additional observations from a re-analysis of the deposited data

Results flagged for a closer look

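In the V5-only libraries the number of significant peaks at 125 to 200 kDa, 6562, lay far above the next value, 1915. The share of neighbouring significant peaks within 1 kb on a strand was also far above the rest there, at 28.6% against 16.6% in the next V5-only library. With each list limited to its 383 peaks of highest fold, the share was 10.6%, within the 8.31% to 14.3% of the other V5-only libraries. The FLAG-only library of the range had 11119 peaks where the next had 6374, and 34.7% of neighbours within 1 kb where the next had 34.3%, and neither value stood as far apart. In all, 6 sets of 7 gel ranges were examined and 2 held such a value, both from the same library. The range was chosen with earlier results of these data known. The usual chance rate of about 1 set in 20 therefore does not apply, and these flags are not tests.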

How the results depend on the processing

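The 3 tests over the other gel ranges kept their direction under every alternative run. Without any 1 range the antibody preference was 1.66 to 1.90, the recovery difference 5.98 to 8.84 points in FLAG-only and 2.07 to 3.23 points in V5-only, and p was 0.0625, the smallest that 5 ranges allow. With −log10 p of at least 5, the V5-only recovery difference lost its call at 1.55 points (exact permutation, adjusted p = 0.188). The preference was 2.85 with −log10 p of at least 5 and 1.28 with a log2 fold of at least 2, where the recovery differences were 29.5 points in FLAG-only and 15.9 points in V5-only. The preference test pairs the antibodies by gel range, and no replicate block was fitted because the labels give no replicate numbers.

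The described values moved with the settings. With −log10 p of at least 5 there were 6790 FLAG-only and 3930 V5-only peaks, 37.3% and 63.1% of them shared, 39.8% and 34.6% of neighbours lay within 1 kb, and 50.0% of FLAG-only peaks were found in this range alone. With a log2 fold of at least 2 there were 15946 FLAG-only and 12988 V5-only peaks, the shared shares were 47.9% and 59.6%, and 27.1% of FLAG-only and 44.1% of V5-only peaks were found in this range alone. Where 50% of each peak had to overlap, 22.2% and 37.7% were shared and 66.5% and 86.8% were in this range alone. Within 1 kb these values were 50.5%, 68.6%, 31.9% and 58.6%. Merged regions shared 30.9% and 51.6%, lists of equal length (6562 peaks each) 39.1% and 40.0%, and opposite strands 0% and 0%. In lists cut to 383 peaks each, 20.3% and 10.6% of neighbours lay within 1 kb. Without a called peak in the other ranges, 5.18% and 6.98% remained in this range alone. With the FLAG-only fold threshold raised by the difference of the commonest folds, a setting chosen after seeing the data, FLAG-only had 4922 peaks, 0.750 times the V5-only number, and 40.6% and 31.7% were shared. The restricted recovery comparisons and the other ranges at equal length were also chosen after seeing the data, and at equal length the preference was 3.24 (exact permutation, adjusted p = 0.0469). Read depth is unknown, so what depth limits cannot be given.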
